A study of Mus musculus with 24 samples.

Results

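The genes described here encode the nuclear-encoded subunits of oxidative phosphorylation in mouse visceral fat. They were chosen by symbol from a table of 27179 genes: the Nduf, Sdh, Uqc, Cox4 to Cox8 and Atp5 families, without the brown-fat isoforms Cox7a1 and Cox8b and without genes named as pseudogenes, and with at least 10 counts in 4 or more of 24 libraries. Of 93 symbols that match, 4 were excluded, 3 were under the count minimum (Uqcr11, Cox8c and Cox7b2) and 86 were kept. Complex I had 39 members, complex II 4, complex III 10, complex IV 16 and complex V 17. The symbols take in 4 copies of other members (Ndufa11b, Ndufb4b, Ndufb4c and Ndufs6b, of which GENCODE M21 lists 3 as processed pseudogenes and has no entry under that symbol for Ndufb4b). They also take in the assembly factors Uqcc1, Uqcc2 and Uqcc3, Atp5s, grouped here as associated with complex V, and Cox7a2l, which joins complexes III and IV. Not every member is therefore a subunit.

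Whole visceral (perigonadal) fat of mice 27 to 33 weeks old was sequenced in 6 groups of 4 libraries. The groups were PpargFoxp3cre males and females, TbetFoxp3cre males and females, and Foxp3cre control males and females, called Pparg knockouts, Tbet knockouts and WT below. Every group carried the Foxp3cre allele, whose Cre is active in regulatory T cells, so Pparg (a nuclear receptor for fatty acids) or Tbet (the transcription factor encoded by Tbx21) was deleted in that rare cell type and the whole tissue was measured. Each group had 2 libraries from batch 2 (replicates 2 and 4) and 2 from batch 1 (replicates 1 and 3), as the sample titles give them. In each group the titles give replicates 1 and 2 the same number across the batches, and likewise replicates 3 and 4. The labels do not say whether libraries with the same title number share an animal, or whether each library is its own animal. The p-values therefore reflect library-to-library spread, which may be partly technical.

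Oxidative phosphorylation passes electrons from NADH (complex I) and succinate (complex II) through complex III to oxygen at complex IV, and complex V uses the resulting proton gradient to make ATP. The core of complexes I, III, IV and V is partly encoded in mitochondrial DNA, and the nuclear genome supplies the remaining subunits, so the complexes are built from both genomes. Nuclear subunit genes are known for promoters with sites for the factors NRF1, ETS family members (NRF2/GABP) and YY1, and in fat they are known to be high in thermogenic adipocytes.

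RefSeq promoter windows of build GRCm38.p6, from 250 bases before to 50 bases after a start site, were found for 68 members (73 windows); 18 members had no entry, among them Cox4i2 and Ndufa4l2. The letters searched, on both strands, included CCGGAAG (ETS), CGCATGCG (NRF1) and ATGGCGG (YY1). The words can share end letters, and overlaps were not removed. CCGGAAG was in 20.5% of the members' windows against 8.86% of all 32851 windows in the table, CGCATGCG in 11% against 1.87%, and ATGGCGG in 15.1% against 4.05%. At least 1 of the 3 was in 39.7% of the members' windows against 13.5% of all windows. A match describes letters and is not a measured binding site. The windows below are those of a member that holds all 3 words (Atp5j), of the member with the smallest adjusted p between WT sexes and between batches (Uqcrh), and of abundant subunits of complexes IV and V (Cox6a1, Atp5b), shown 5′ to 3′ on the minus strand of chr16:84834927-84835226, chr4:116075021-116075320 and chr5:115348909-115349208 and on the plus strand of chr10:128083057-128083356. Capitals mark the ETS, NRF1 and YY1 words or, for a match on the other strand, their reverse complements.
Atp5j: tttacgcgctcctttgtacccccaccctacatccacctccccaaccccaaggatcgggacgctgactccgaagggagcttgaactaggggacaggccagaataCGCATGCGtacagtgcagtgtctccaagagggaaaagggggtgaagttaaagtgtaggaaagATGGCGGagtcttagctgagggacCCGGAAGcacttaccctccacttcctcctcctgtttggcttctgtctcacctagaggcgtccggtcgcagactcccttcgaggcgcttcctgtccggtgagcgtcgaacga
Uqcrh: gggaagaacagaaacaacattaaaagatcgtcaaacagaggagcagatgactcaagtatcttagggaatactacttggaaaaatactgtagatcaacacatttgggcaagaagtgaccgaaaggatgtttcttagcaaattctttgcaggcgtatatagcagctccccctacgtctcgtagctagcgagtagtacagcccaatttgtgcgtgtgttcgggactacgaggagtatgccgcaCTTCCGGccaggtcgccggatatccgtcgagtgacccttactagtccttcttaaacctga
Cox6a1: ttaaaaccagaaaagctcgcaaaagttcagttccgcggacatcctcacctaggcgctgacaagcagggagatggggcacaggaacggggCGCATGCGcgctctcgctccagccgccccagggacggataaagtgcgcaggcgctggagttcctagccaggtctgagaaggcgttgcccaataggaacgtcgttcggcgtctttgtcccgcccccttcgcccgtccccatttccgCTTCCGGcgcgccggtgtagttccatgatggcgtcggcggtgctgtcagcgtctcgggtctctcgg
Atp5b: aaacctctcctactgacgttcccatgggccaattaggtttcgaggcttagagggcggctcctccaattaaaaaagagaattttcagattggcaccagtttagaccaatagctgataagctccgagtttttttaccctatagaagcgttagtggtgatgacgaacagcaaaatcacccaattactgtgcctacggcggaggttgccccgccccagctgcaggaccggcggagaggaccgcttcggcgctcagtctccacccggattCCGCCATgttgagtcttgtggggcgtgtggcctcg

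Libraries held 8345575 to 31022845 counts, of which the members took 0.607% to 1.36%. Mature adipocyte markers (12 genes) summed to 10480 CPM (counts scaled to library size, with trimmed mean of M values, TMM, scaling) in WT female replicate 1, against up to 69960 CPM elsewhere. That library also had the highest sum of 11 ductal epithelium markers, 1405 CPM, and its source name gives batch 2 where its title gives batch 1. The title was followed. Counts of 2 libraries were also compared by a chi-square per degree of freedom over genes, where lower means more alike. WT female replicate 1 had 151.2 against replicate 3, of batch 1. Against replicates 2 and 4, of batch 2, it had 348.9 and 326.5, so it was nearer to the batch of its title. WT female replicate 3 and Pparg knockout female replicate 1 were also low in adipocyte markers, at 23590 and 23490 CPM. In whole fat Foxp3 reached at most 1.51 CPM and Tbx21 2.65 CPM, and Pparg, which adipocytes express, ranged from 64.8 to 362 CPM over all groups, so none of these levels checks a deletion limited to regulatory T cells. In bulk tissue, fewer cells of a type and less RNA per cell cannot be told apart.

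Levels per length, as the median deposited FPKM (fragments scaled for transcript length and library size) over 24 libraries, spanned a wide range within each complex. Complex V held the highest member of all, Atp5b, the catalytic beta subunit, at 701 FPKM (lowest library 507, highest 885), and its lowest was Atp5g2 at 4.61 FPKM. Complex IV followed with Cox4i1 at 565 FPKM, Cox8a at 535 and Cox6a1 at 426, and its lowest member with a value was Cox4i2 at 5.14. In complex I, Ndufb9 had 238 FPKM and the copy Ndufa11b 4.71. In complex III, Uqcrq had 220 FPKM and the assembly factor Uqcc1 23.6. In complex II, the flavoprotein subunit Sdha had 157 FPKM and the membrane anchor Sdhd 10.7. Cox6a2 and Ndufs6b had no FPKM value. The 3 genes for the c ring of complex V were unequal, with Atp5g3 at 372 FPKM, Atp5g1 at 9.48 and Atp5g2 at 4.61. The muscle and testis forms of complex IV subunits were low beside their common partners: Cox6b2 had 8.48 FPKM against 338 for Cox6b1, and Cox6a2 had at most 1.37 CPM in any library. Cox5a (141 FPKM) and Cox5b (66.0 FPKM) are separate subunits, not alternatives. Cox7a2 (48.9 FPKM) is the common form of its subunit, and Cox7a2l (106 FPKM) encodes a factor that joins complexes III and IV. Some levels are uncertain because reads can be split with near-identical copies. Of 82 members with transcripts, 37 shared at least 1 stretch of 50 bases with another gene. Atp5l shared 68.5% of its stretches, Uqcrb 43.2% and Cox7c 23%. Of the c ring genes, Atp5g2 shared 38.3%, Atp5g1 10.2% and Atp5g3 0%. What part this has in their unequal levels was not tested.

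**Figure D1:**
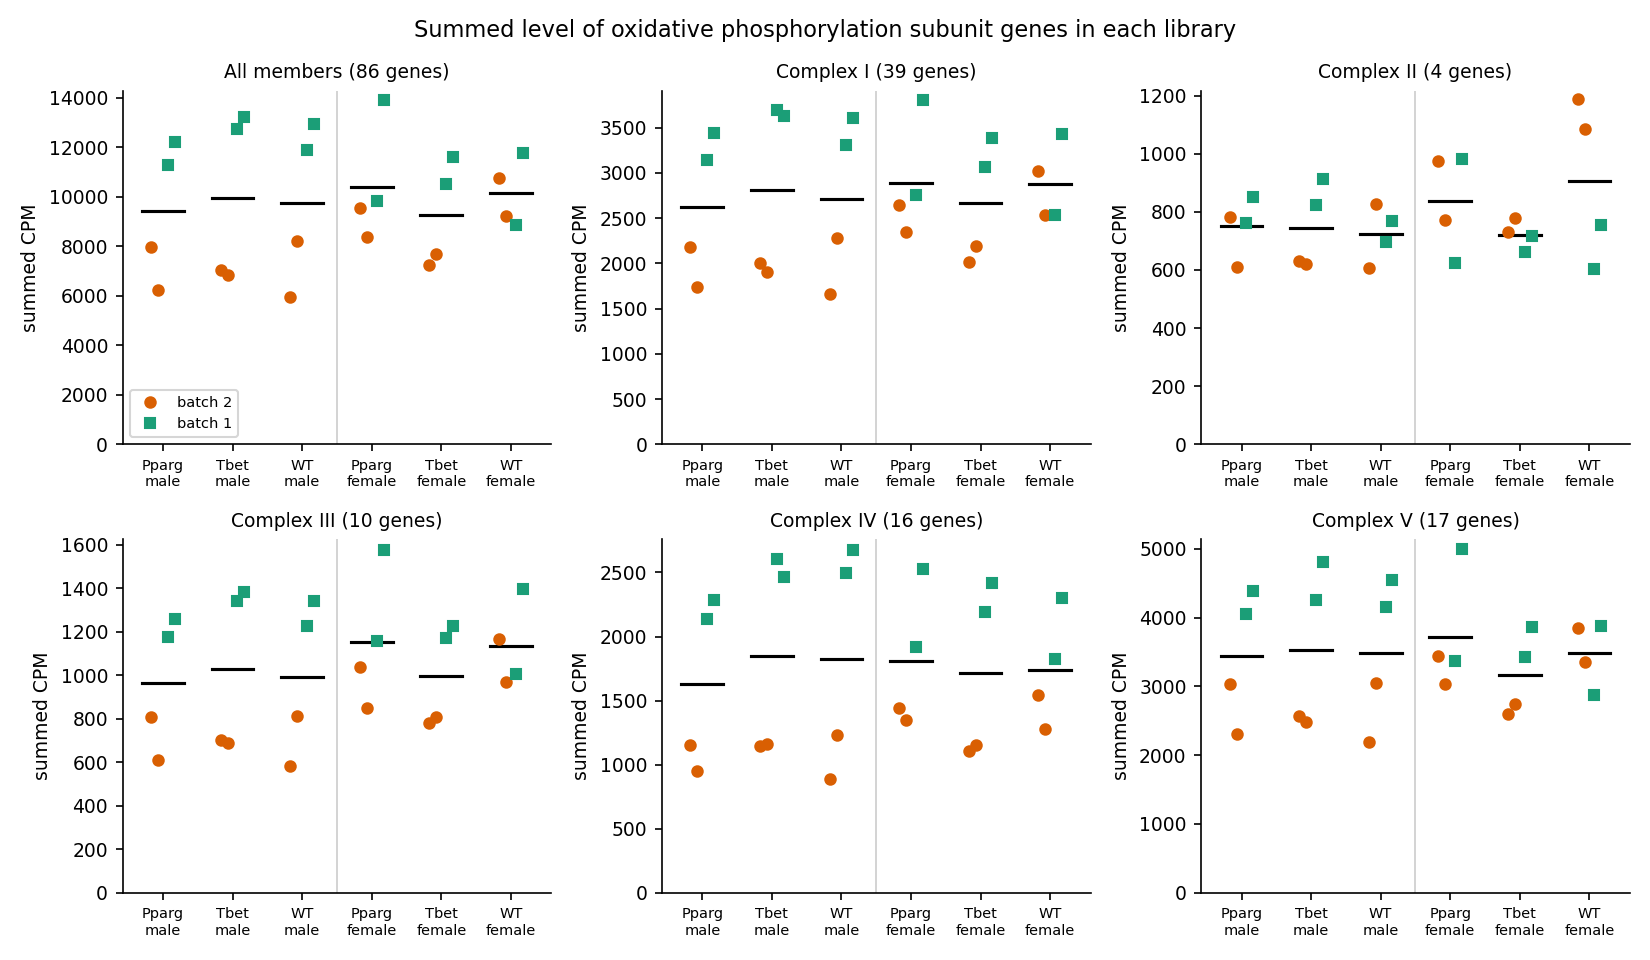
Summed CPM of all 86 members and of each complex (y axis) in each library of the 6 groups (x axis); circles are batch 2, squares batch 1, and bars the mean of 4 libraries. In males every batch 2 library lies below every batch 1 library in complexes I, III, IV and V; the sums of all members in WT females overlap between batches.

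The first comparison asks whether loss of Pparg or Tbet in regulatory T cells went with other levels of respiratory chain transcripts in the surrounding fat. No member passed the test (edgeR quasi-likelihood F test, Benjamini-Hochberg adjusted p under 0.05 over 17824 genes) in either knockout in either sex. The summed level of all members was 9416 ± 2808 CPM in Pparg knockout males, 9958 ± 3473 CPM in Tbet knockout males and 9737 ± 3245 CPM in WT males (SD, n = 4 each). In females it was 10400 ± 2411 CPM in Pparg knockouts, 9263 ± 2141 CPM in Tbet knockouts and 10140 ± 1360 CPM in WT. Each SD pools both batches and so includes the difference between them. Over both batches the groups overlapped in both sexes. Within each batch each knockout group also overlapped WT of its sex, except Tbet knockout females in batch 2. These had 7241 and 7672 CPM, against 10760 and 9209 CPM in WT females. In batch 1 they had 10520 and 11620 CPM, against 8846 and 11760 CPM. The sums were not tested.

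In Pparg knockout males against WT males, 0 of 86 members were called, as were 0% of all genes, and the members' log2 fold changes had a median of -0.03 (all genes -0.01) with 81 of 86 within 0.25 of no change. None of the 86 passed even an unadjusted p of 0.05. The extremes were Cox6a2 (-0.33) and Sdhd (0.35). In Tbet knockout males against WT males, 0 of 86 were called beside 0.00561% of all genes; the median was 0.06 (all genes -0.01), 80 of 86 were within 0.25, and 2 members, Sdhd (0.53 ± 0.25, SE) and Uqcrh (0.28 ± 0.12), were higher at an unadjusted p under 0.05, both with an adjusted p of 1. In Pparg knockout females against WT females, 0 of 86 were called beside 0.0168% of all genes. The median there was 0.01 (all genes -0.02), 78 of 86 were within 0.25, and only Cox6c, a small complex IV subunit, had an unadjusted p under 0.05 (-0.32 ± 0.15, adjusted p = 0.392). DESeq2 and 3 limma fits also called 0 members in these 3 comparisons.

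Tbet knockout females against WT females gave 0 of 86 members called beside 1.22% of all genes, with 67 of 86 within 0.25 of no change; DESeq2 also called 0, limma voom with quality weights 2 and voom with a correlation within title numbers 1. The median member log2 fold change was -0.13 (all genes -0.04), and 67 of 86 were negative. Between libraries of the same group and batch, the members' median log2 CPM had an SD of 0.21. Members are measured in the same libraries, so the counts of signs here and below are not independent evidence and were not tested. At an unadjusted p under 0.05, 1 member was higher (Ndufa4l2, 0.65 ± 0.29, adjusted p = 0.246) and 6 were lower, among them Ndufs8, an iron-sulphur subunit of complex I (-0.31 ± 0.12, adjusted p = 0.185, the smallest of all members), and Uqcrc2, a core protein of complex III (-0.43 ± 0.18, adjusted p = 0.231). The extremes were Ndufa11b (-0.51) and Cox6a2 (0.90), and Cox6a2 had few reads and was at 0 in Tbet knockout female replicates 2 and 4. Within batch 1 alone the median was 0.11, so the direction of the median was not the same in both batches.

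The genes next to the respiratory chain in fuel use were not all level in that comparison. Of 17 genes of the citrate cycle and pyruvate dehydrogenase, 2 fell in Tbet knockout females against WT females: Pdhb (-1.61 ± 0.26, adjusted p = 0.00547) and Pdha1 (-1.02 ± 0.24, adjusted p = 0.0419), the beta and alpha subunits of the enzyme that feeds pyruvate carbon into the citrate cycle. Of 15 fatty acid oxidation genes, Cpt1a, which admits long-chain fatty acids to mitochondria, rose (0.74 ± 0.14, adjusted p = 0.0146). Of all genes, 0.583% were higher and 0.64% lower. The same WT females, replicate 1 among them, are the reference of the WT sex comparison below. The changes of these genes in the 2 comparisons are therefore not independent, and they were not tried without single libraries. None of 5 electron carrier genes, 13 mitochondrially encoded messengers, 39 assembly factors, 15 biogenesis regulators, 9 carriers, 78 mitochondrial ribosome genes 2 mitochondrial ribosomal RNAs, 88 cytosolic ribosome genes or the excluded isoforms Cox7a1 and Cox8b passed in any of the 4 knockout comparisons.

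**Figure D2:**
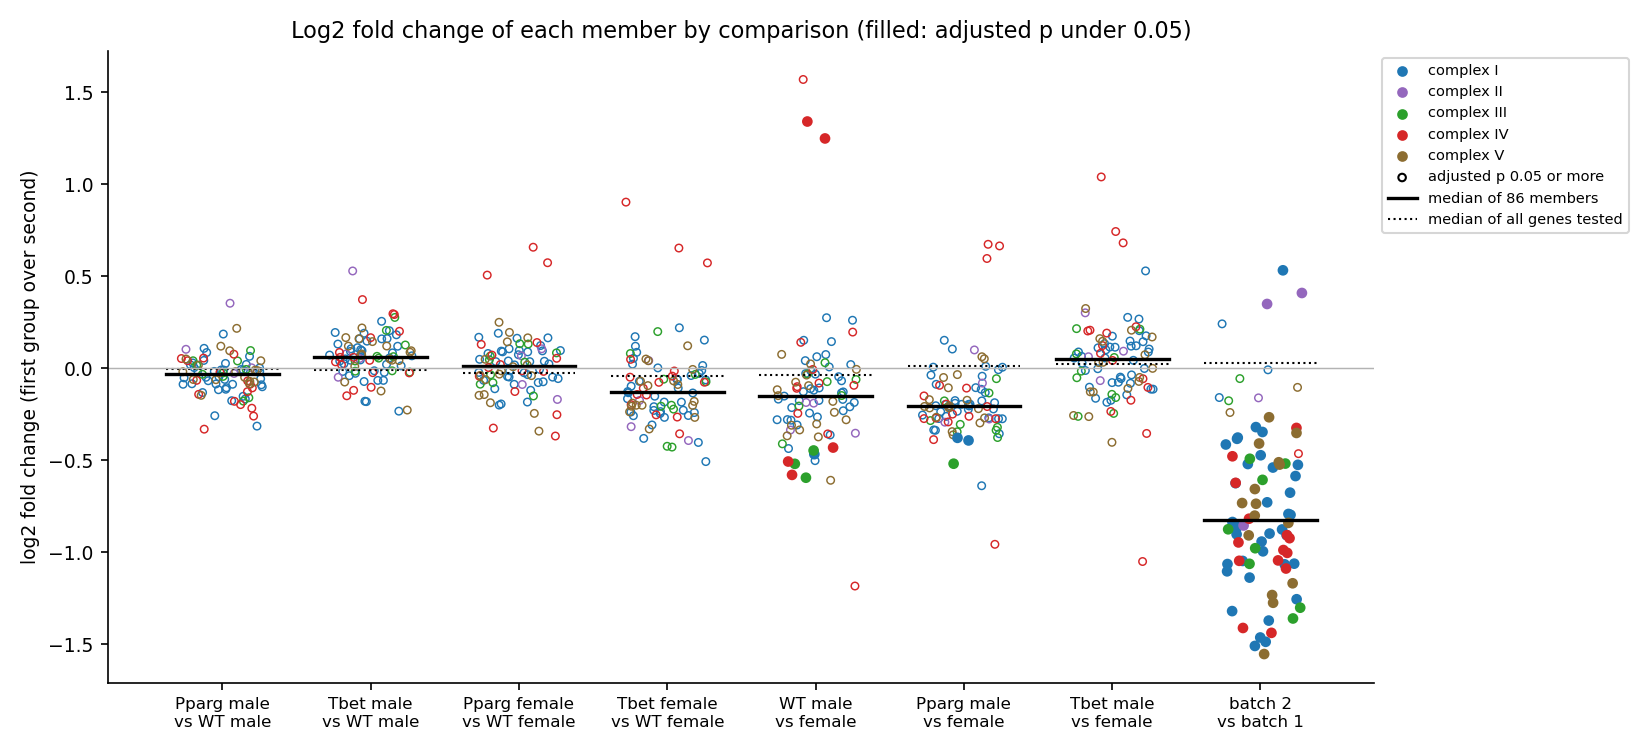
Log2 fold change of each member (points, coloured by complex; filled when the adjusted p is under 0.05) in 8 comparisons; solid bars are the median of the 86 members and dotted bars that of all genes tested. No point is filled in the 4 knockout comparisons, 9 are filled for WT sexes, 3 for Pparg knockout sexes and 76 for batches.

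Male and female fat differed in a few members. In WT, 9 of 86 members were called between males and females, 2 higher and 7 lower in males, beside 27.2% of all genes (13.6% higher and 13.6% lower). The members' share was 10.5% in this fit, and its place beside the share of all genes changed with the setting. It was 27.9% of members beside 29.6% of all genes with voom quality weights. With the source name's batch, which moves WT female replicate 1 away from the batch of its title, it was 27.9% beside 26.8%. The 2 higher were Ndufa4l2 and Cox4i2, alternative forms of complex IV subunits that are known to respond to low oxygen. The 7 lower were Uqcrh, Uqcrb and Uqcrc2 of complex III, Cox7a2l, Cox7b and Cox7c of complex IV, and Ndufa6 of complex I. The median log2 fold change was -0.15 (all genes -0.04), with 69 of 86 negative.

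Ndufa4l2, which is known to replace Ndufa4 when the hypoxia factor HIF1 is active, had 10.4 and 9.87 CPM in batch 2 and 41.3 and 46.3 CPM in batch 1 in WT males, against 8.24 and 6.51 CPM in batch 2 and 9.40 and 11.5 CPM in batch 1 in WT females. Males were above females within each batch, far above in batch 1, and over both batches the groups overlapped. The log2 fold change over both batches was 1.25 ± 0.29 (SE, adjusted p = 0.00445), but it was 2.03 in batch 1 alone (adjusted p = 0.00128) and 0.46 in batch 2 alone (adjusted p = 0.305). Its partner Ndufa4 did not pass (-0.08 ± 0.20, adjusted p = 0.789). As a share of Ndufa4 on the FPKM scale, the median Ndufa4l2 was 5.72% in batch 2 and 9.38% in batch 1 in males of all genotypes, against 3.79% and 3.95% in females.

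Cox4i2, the oxygen-responsive form of the largest nuclear subunit of complex IV, had 3.59 and 3.62 CPM in batch 2 and 12.1 and 12.3 CPM in batch 1 in WT males, against 2.62 and 2.60 CPM in batch 2 and 2.44 and 2.42 CPM in batch 1 in WT females. The groups did not overlap over both batches, and the gap was wide in batch 1 and narrow in batch 2. The log2 fold change was 1.34 ± 0.35 (adjusted p = 0.00865), with 2.29 in batch 1 alone (adjusted p = 0.00114) and 0.47 in batch 2 alone (adjusted p = 0.414). The common form Cox4i1 did not pass (-0.01 ± 0.15, adjusted p = 0.98). Both alternative genes are also known from pericytes and vascular smooth muscle of mouse. Of 5 endothelial markers, 4 rose in WT males, and their sum was 1100 to 1830 CPM in males of all genotypes against 334 to 1144 CPM in females; their part in the difference was not tested. Cox4i2 overlaps Bcl2l1, and Ndufa4l2 overlaps Shmt2, on GRCm38; neither neighbour passed (Bcl2l1 0.25, adjusted p = 0.338; Shmt2 -0.11, adjusted p = 0.654).

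Uqcrh, the hinge protein of complex III, lies on chromosome 4 and its promoter is printed above. It had 45.9 and 59.5 CPM in batch 2 and 147 and 146 CPM in batch 1 in WT males, against 91.3 and 75.7 CPM in batch 2 and 168 and 255 CPM in batch 1 in WT females. Males were lower in each batch without overlap. The log2 fold change was -0.59 ± 0.12 (adjusted p = 0.00208), with -0.66 within batch 2 (adjusted p = 0.0496) and -0.57 within batch 1 (adjusted p = 0.059). Cox7a2l had 70.0 and 73.4 CPM in batch 2 and 127 and 140 CPM in batch 1 in WT males, against 86.1 and 85.4 CPM in batch 2 and 220 and 216 CPM in batch 1 in WT females (log2 fold change -0.51 ± 0.13, adjusted p = 0.00692). Ndufa6, an accessory subunit of complex I, had 30.99 and 35.5 CPM in batch 2 and 49.2 and 62.6 CPM in batch 1 in WT males, against 49.4 and 42.6 CPM in batch 2 and 69.7 and 84.6 CPM in batch 1 in WT females (-0.47 ± 0.11, adjusted p = 0.00373). Both were lower in males within each batch.

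Cox7c, a small subunit of complex IV, averaged 7.86 ± 1.82 CPM in WT males and 11.7 ± 3.64 CPM in WT females (SD, n = 4 each; log2 fold change -0.58, adjusted p = 0.0095). Its female mean held 1 high library, replicate 3 at 17.2 CPM, without which the adjusted p was 0.0544. The other 3 lower genes were near the threshold: Uqcrc2 had a log2 fold change of -0.52 (adjusted p = 0.0416), Uqcrb of -0.45 (adjusted p = 0.0322) and Cox7b of -0.43 (adjusted p = 0.0462). Each of these 3 lost its call without WT female replicate 2, 3 or 4 or WT male replicate 2, and in batch 1 alone Cox7b differed by only -0.03. The widest negative log2 fold change, that of the testis-rich form Cox6b2 (-1.18 ± 0.44, adjusted p = 0.052), and the widest positive one, that of the heart and muscle form Cox6a2 (1.57 ± 0.84, adjusted p = 0.171), did not pass.

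The number of called members depended on single libraries. Without WT female replicate 1, the library with the fewest adipocyte markers, it was 22 (2 higher, 20 lower in males). That is 25.6% of members beside 23.8% of all genes. Without WT female replicate 3 it was 5 (2 higher, 3 lower), which is 5.81% of members beside 17.8% of all genes. The sexes also differed by batch: with batch 2 libraries only, the members' median was -0.45, and with batch 1 libraries only it was 0.12. Mature adipocyte markers summed to 10480 and 23590 CPM in batch 1 WT females (replicates 1 and 3) and to 61340 and 69960 CPM in batch 1 WT males. In batch 2 the sums were 54140 and 41930 CPM in WT females and 39060 and 53130 CPM in WT males. Their part in the members' differences was not tested.

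**Figure D3:**
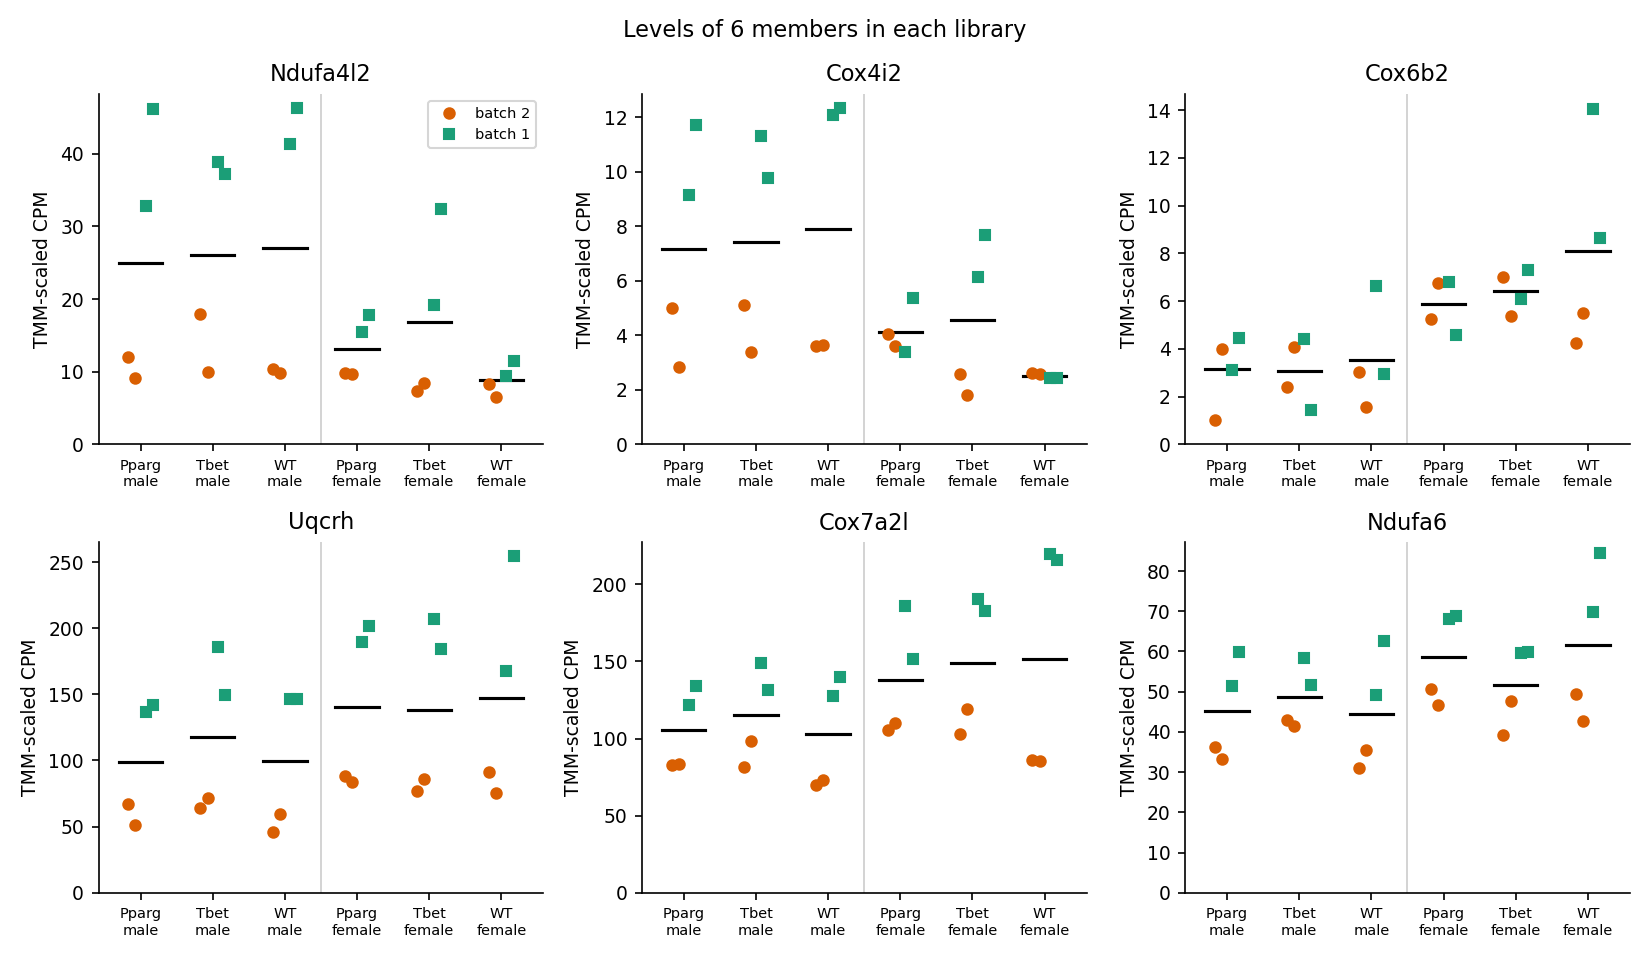
TMM-scaled CPM of 6 members (y axis) in each library of the 6 groups (x axis); circles are batch 2, squares batch 1, and bars the mean of 4 libraries. Male batch 1 libraries stand highest for Ndufa4l2 and Cox4i2, the lowest of the 6 at 32.9 and 9.15 CPM, while Uqcrh, Cox7a2l and Ndufa6 are lower in WT males than in WT females within each batch.

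In Pparg knockouts, 3 of 86 members were called between males and females, all lower in males, beside 8.77% of all genes (3.59% higher and 5.18% lower). Uqcrh had 66.7 and 51.2 CPM in batch 2 and 136 and 142 CPM in batch 1 in males, against 87.9 and 83.7 CPM in batch 2 and 190 and 202 CPM in batch 1 in females (-0.52 ± 0.12, adjusted p = 0.0138). Ndufa6 (-0.39 ± 0.11, adjusted p = 0.0264) and Ndufa11, an accessory subunit in the membrane arm of complex I (-0.38 ± 0.11, adjusted p = 0.0311), followed. The members' median was -0.21 (all genes 0.01), with 75 of 86 negative. No call was left without Pparg knockout male replicate 1, and 1 was left without Pparg knockout male replicate 4 or female replicate 2. Leaving out the 8 libraries with over 150 CPM of ductal epithelium markers also left no call and a median of 0.05.

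In Tbet knockouts, 0 of 86 members were called between the sexes beside 9.31% of all genes; 3 were higher and 2 lower in males at an unadjusted p under 0.05, and DESeq2 called 0, limma on the deposited log2 FPKM 1, and limma voom 2 or 4. The closest was Cox7a2l (-0.35 ± 0.13, adjusted p = 0.0856). Ndufa4l2 (0.68 ± 0.29, adjusted p = 0.139) and Cox4i2 (0.74 ± 0.34, adjusted p = 0.174) had positive values and Cox6b2 a negative one (-1.05 ± 0.44, adjusted p = 0.141). Uqcrh was -0.24 ± 0.12 (adjusted p = 0.216). The 3 sex comparisons use different libraries, and no test showed that the sex difference of any member depended on genotype: 0 members were called for the Pparg effect in males minus that in females, beside 0% of all genes and 0 members at an unadjusted p under 0.05. For the Tbet effect in males minus that in females, 0 members were called beside 0.00561% of all genes, the median was 0.20 (all genes 0.03), and 77 of 86 were positive; Ndufa6 had the smallest adjusted p, 0.357. DESeq2 also called 0 members in both.

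The counts of the related lists between WT males and females stand beside 13.6% of all genes higher and 13.6% lower, and no list was tested against other genes. Of 88 cytosolic ribosome genes 59 fell and 1 rose in males, with a median of -0.58, led by Rpl15 (-0.72 ± 0.11, adjusted p = 0.00015). Of 15 fatty acid oxidation genes 3 rose, Cpt1a (1.16 ± 0.14, adjusted p = 2.89e-05), Slc25a20 and Acaa2, and none fell. Of 17 genes of the citrate cycle and pyruvate dehydrogenase 3 fell, Pdhb (-1.59 ± 0.26, adjusted p = 0.00035), Pdha1 and Idh3b. Of 39 assembly factors 1 rose (Cox10) and 3 fell (Cox20, Bcs1l and Timmdc1), of 78 mitochondrial ribosome genes 1 rose and 4 fell, and of 15 biogenesis regulators 2 fell, Twnk, the mitochondrial DNA helicase, and Tfb2m, a mitochondrial transcription factor. Of 9 carriers and coupling genes Ucp2 rose (1.37 ± 0.35) and Ucp1, the uncoupling protein of thermogenic fat, fell with a wide SE (-6.64 ± 1.79, adjusted p = 0.0107). The 10 thermogenic markers, Ucp1 among them, together summed to 34.7 to 131 CPM in males and 45.4 to 304 CPM in females of all genotypes. None of 5 electron carrier genes, 13 mitochondrially encoded messengers, 2 mitochondrial ribosomal RNAs or the excluded isoforms Cox7a1 and Cox8b passed in that comparison.

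The widest difference among the libraries was between the batches, which are balanced over the groups. In batch 2 against batch 1, 76 of 86 members were called, 3 higher and 73 lower, beside 26% of all genes higher and 25.7% lower. The median log2 fold change was -0.83 for the members and 0.03 for all genes. For 37 members all 12 batch 2 libraries lay below all 12 batch 1 libraries, as they did for 5.44% of all genes, and for 0 members did they all lie above, as they did for 5.44% of all genes. The labels do not say what a batch is, so extraction, library preparation, sequencing and animals cannot be told apart.

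The largest falls were spread over complexes. Atp5e, the epsilon subunit of the complex V motor, had a median of 35.7 CPM (23.5 to 40.0) in batch 2 and 112 CPM (104 to 130) in batch 1 in 6 male libraries each. In females it had 44.9 CPM (38.6 to 52.7) in batch 2 and 117 CPM (95.5 to 128) in batch 1. Its log2 fold change was -1.55 ± 0.09 (adjusted p = 4.43e-11). Ndufb2 of complex I fell by 1.51, Cox6c of complex IV by 1.44, Uqcrq of complex III by 1.36 and Uqcrh by 1.30 on the log2 scale. Uqcrh had the smallest adjusted p of all members, 1.58e-11.

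The number called lower was 35 of 39 in complex I, 1 of 4 in complex II, 8 of 10 in complex III, 14 of 16 in complex IV and 15 of 17 in complex V. The medians were -0.83 in complex I, 0.09 in complex II, -0.74 in complex III, -0.93 in complex IV and -0.73 in complex V. Of the 28 accessory complex I subunits 25 fell, against 6 of 7 core ones, with medians of -0.87 and -0.52. All 11 members of the membrane part and stalk of complex V fell, and 4 of 5 of its F1 head. Atp5s, counted apart from both, was not called.

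The 3 that rose were Ndufs1, Sdha and Sdhd. Sdha, the flavoprotein of complex II, had a median of 422 CPM (407 to 559) in batch 2 and 421 CPM (356 to 485) in batch 1 in males, against 579 CPM (488 to 796) in batch 2 and 342 CPM (315 to 515) in batch 1 in females, and rose by 0.41 ± 0.12 over both sexes (adjusted p = 0.00772). Ndufs1, the largest iron-sulphur subunit of complex I, rose by 0.53 ± 0.13 (adjusted p = 0.00198), and Sdhd by 0.35 ± 0.14 (adjusted p = 0.0482). The batches overlapped for Sdha in both sexes. The members not called were Ndufa8, Ndufa10, Ndufb3, Sdhb, Uqcc1, Uqcrc2, Atp5b, Atp5s, Cox6a2 and Cox6b2.

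**Figure D4:**
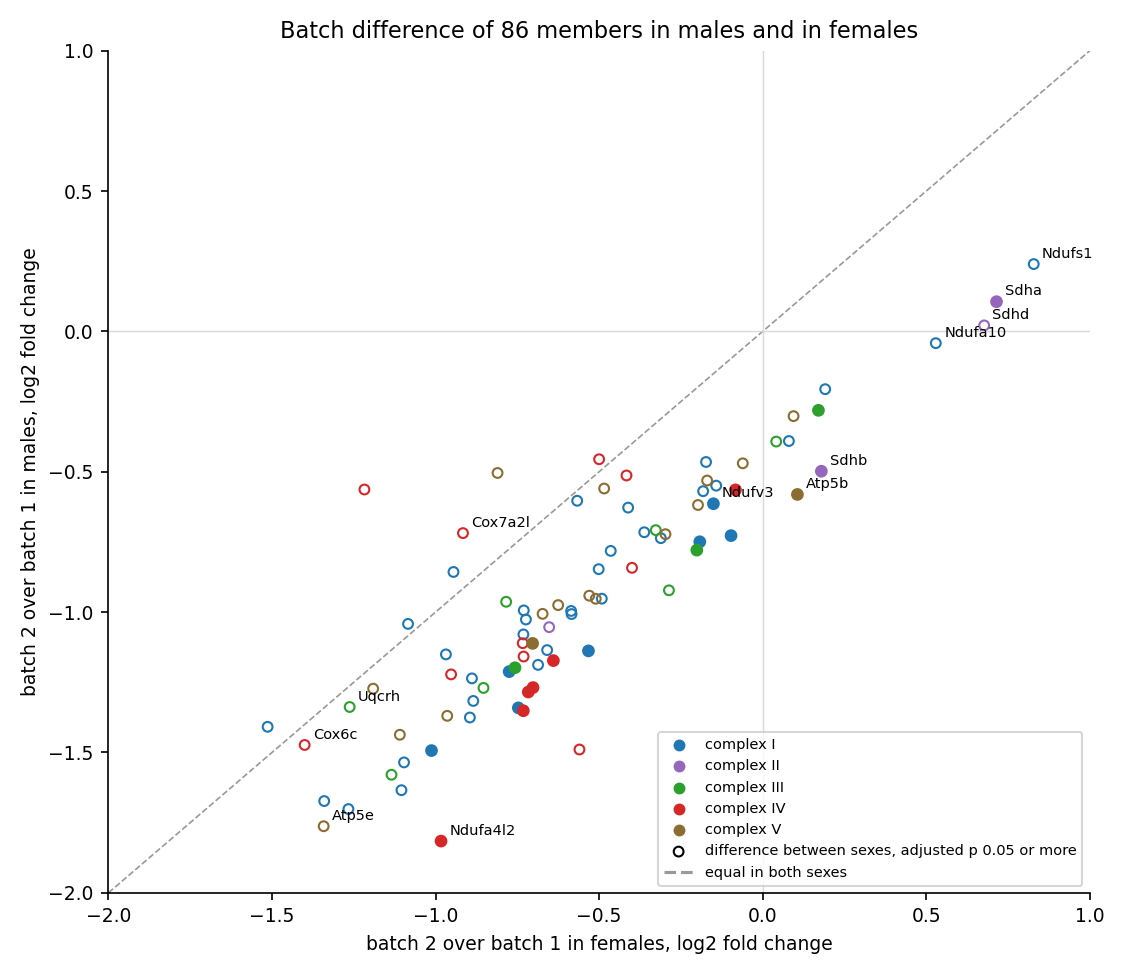
Log2 fold change of batch 2 over batch 1 for each of 86 members in males (y axis) against that in females (x axis), coloured by complex and filled where the difference between the sexes has an adjusted p under 0.05. The members lie mostly below the dashed line of equal change, and Ndufs1, Sdha and Sdhd are at the upper right.

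With a batch term in each sex, 77 members were called lower and 0 higher in males, beside 24% and 25% of all genes, with a median of -0.97. In females 59 were called lower and 4 higher, beside 23.5% and 23.1% of all genes, with a median of -0.63; the 4 higher were Ndufs1, Ndufa10, Sdha and Sdhd. The difference itself was called for 20 members, all more negative in males, beside 9.52% of all genes more negative and 9.41% more positive, and its median was -0.42. Ndufv3, an accessory subunit at the NADH-binding module of complex I, had the smallest adjusted p, with -0.61 in males and -0.15 in females (difference -0.46 ± 0.11, adjusted p = 0.00957). Atp5b had -0.58 in males and 0.11 in females (difference -0.69 ± 0.23, adjusted p = 0.0467), and Sdhb, the iron-sulphur subunit of complex II, -0.50 in males and 0.18 in females (difference -0.68 ± 0.21, adjusted p = 0.0322). Ndufa4l2 had -1.82 in males and -0.98 in females (difference -0.83 ± 0.28, adjusted p = 0.0429). Uqcrh did not pass for the difference, with -1.34 in males and -1.26 in females.

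The batch difference ran with exon length, counted as all bases in any exon of any GENCODE M21 transcript of a gene. This can exceed the length of the transcript that is expressed, so the longer ranges can hold genes with short transcripts. Members are short, with a median exon length of 1569 bases against 4212 over all genes tested. Across 15873 genes with a length the Spearman correlation of length with the batch log2 fold change was 0.419, and across 83 members 0.331; these are correlations across genes within 1 fit, and genes are not independent replicates. For all genes of 500 to 1000 bases the median batch log2 fold change was -0.55, and for the 19 members of that length -0.91. From 2000 to 4000 bases it was -0.16 for all genes and -0.47 for 19 members, and over 4000 bases 0.22 for all genes and -0.49 for 11 members. Of the members that rose, Ndufs1 has 8086 exon bases, Sdha 4126 and Sdhd 1231. Ndufb2, which fell, has 5628, a count of all annotated exons that can exceed its expressed transcript. What part length has in the batch difference was not tested.

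**Figure D5:**
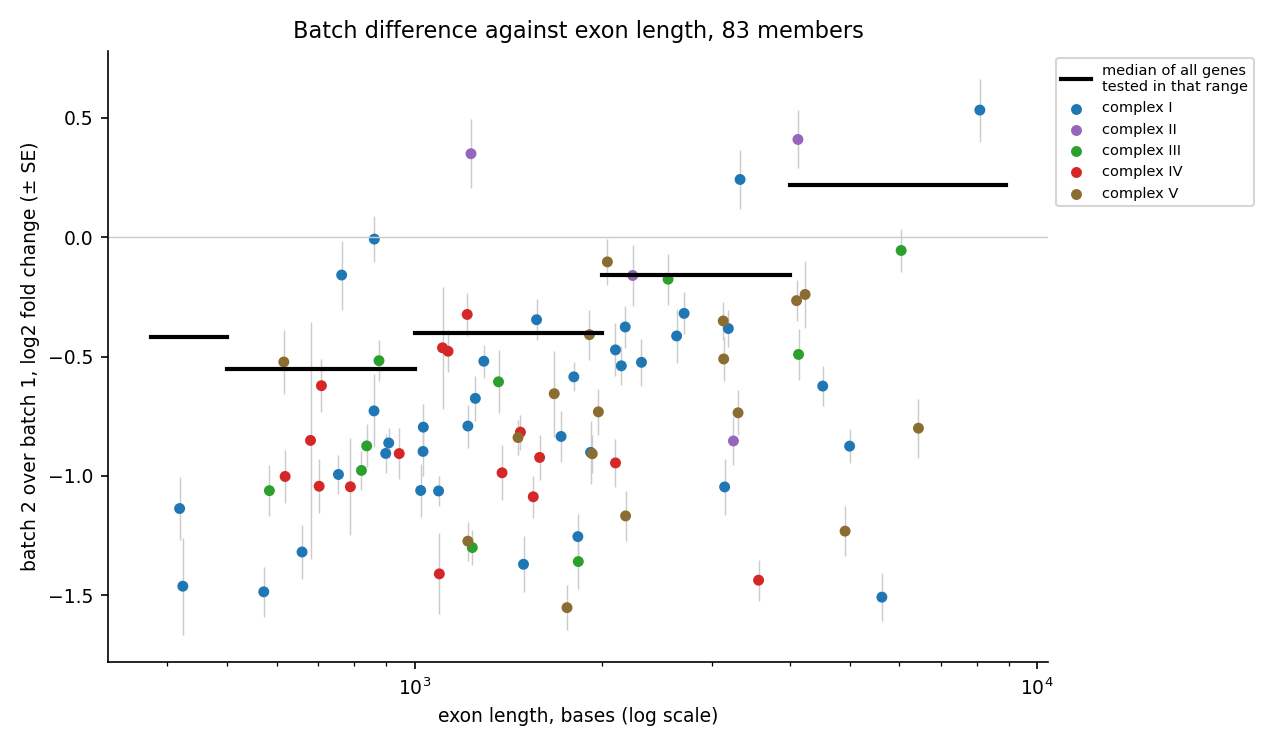
Batch 2 over batch 1 log2 fold change (y axis, bars are SE) of 83 members against exon length in bases (x axis, log scale), coloured by complex; black bars give the median of all genes tested in 5 ranges of length. The median of the members is below that of all genes in each range.

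The batch counts of the related lists stand beside 26% of all genes higher and 25.7% lower, so a list near both shares shows nothing about the list. No list was tested against other genes. In batch 2 against batch 1, 83 of 88 cytosolic ribosome genes fell and none rose (median -1.05), 57 of 78 mitochondrial ribosome genes fell and 2 rose (-0.50), and 22 of 39 assembly factors fell and 2 rose (-0.29). Of 13 mitochondrially encoded messengers 9 fell and 1 rose (-0.57), both mitochondrial ribosomal RNAs fell, and of 5 electron carrier genes 3 fell and 1 rose. Of 9 carriers and coupling genes 6 fell and 2 rose, and of 15 biogenesis regulators 4 fell and 6 rose. Of 17 genes of the citrate cycle and pyruvate dehydrogenase 6 rose and 2 fell (0.12), and of 15 fatty acid oxidation genes 4 rose and none fell (0.13). With a batch term in each sex, 9 of the 17 and 9 of the 15 rose in females and none fell, beside 23.1% of all genes higher and 23.5% lower. In males 1 of the 17 rose and 1 fell, and 2 of the 15 rose and 2 fell, beside 25% and 24%. The difference between the sexes was called for 3 of the 17 and 7 of the 15, all more negative in males, beside 9.52% of all genes. Mature adipocyte markers had 3 of 12 higher and 1 lower (0.12), and thermogenic markers 3 of 10 higher (0.48).

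The mitochondrially encoded messengers were far more abundant than the nuclear members in every library. Their summed CPM was 4.45 times (Tbet knockout male replicate 2) to 7.86 times (WT female replicate 4) that of the 86 members. In WT males the ratio was 5.78 and 6.64 in batch 2 and 4.99 and 6.61 in batch 1, against 7.76 and 7.86 in batch 2 and 7.62 and 6.55 in batch 1 in WT females. WT males reached 6.64 at most, and 3 of 4 WT female libraries were above that, so the groups overlapped. In Pparg knockout females it was 6.19 and 5.83 in batch 2 and 6.52 and 6.07 in batch 1, and in Tbet knockout females 5.87 and 5.33 in batch 2 and 6.35 and 4.75 in batch 1. All 8 knockout female libraries were below the lowest WT female library, the nearest by 6.52 against 6.55. None of the 13 messengers passed in either comparison (median log2 fold change -0.32 in Pparg knockout females and -0.62 in Tbet knockout females, each against WT females). In Pparg knockout males the ratio was 7.30 and 5.20 in batch 2 and 4.69 and 4.64 in batch 1. In Tbet knockout males it was 4.45 and 5.82 in batch 2 and 5.73 and 6.59 in batch 1. Both male knockout groups overlapped WT males. This ratio was looked at after the values were known and was not tested.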

How the data were processed

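RNA-seq of whole visceral fat was measured in 24 libraries, 4 in each of 6 groups. The authors deposited a table of whole-number counts per gene and tables of log2 FPKM; per the submitters' processing notes featureCounts, limma and the builds GRCm38 and mm10 were used, and no versions, strand setting or filters are given in the sources used here. No column was left unused (0). Genes without a symbol (3.79% of rows) held 0.433% of counts and stayed in the fit. Libraries held 8345575 to 31022845 counts, and intervals from replicates cover the spread between libraries only.

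From the counts, edgeR 4.0.16 (R 4.3.3) fitted 1 robust quasi-likelihood model over all libraries with TMM scaling, its filter on low counts by group, the 6 groups and the title's batch, leaving 17 residual degrees of freedom. P-values were adjusted by Benjamini and Hochberg over 17824 genes, and a gene was called under 0.05. DESeq2 1.42.0 and limma 3.58.1 were alternatives. The FPKM values give the order of levels and 1 alternative. Fold changes are log2 with SE.

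The members, the related lists and the cell type marker lists were chosen with earlier results of these data known. Named were the called members (the 20 with the smallest adjusted p at most), isoforms and their partners, the highest and lowest member of each complex, and the extremes of each comparison; further examples, and the mitochondrially encoded messengers, were chosen after their values were seen. The related lists were electron carriers, mitochondrially encoded messengers and ribosomal RNAs, assembly factors, biogenesis regulators, citrate cycle and pyruvate dehydrogenase, fatty acid oxidation, carriers and coupling, both ribosomes, and the excluded isoforms. Overlapping genes and antisense reads cannot be told apart where the counting does not use strand, and 29 members overlap another gene.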

Additional observations from a re-analysis of the deposited data

Results flagged for a closer look

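A single library stood apart from the other 3 of its group for 4 members, of 138 groups looked at over 23 members; chance sets about 1 in 20 groups apart in this way. Cox6a2 had 1.37 CPM in WT male replicate 1, against 0.372, 0.374 and 0.333 CPM in the other WT males. Cox7c had 17.2 CPM in WT female replicate 3, against 10.2, 9.75 and 9.71 CPM in the other WT females. Pparg knockout female replicate 3 stood apart for Cox6b1, with 218 CPM against 159, 163 and 157 CPM, and for Cox7b, with 116 CPM against 80.7, 84.2 and 78.5 CPM.

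The batch difference was more negative in males than in females for 20 members by the test of the difference itself. This count was not tried without single libraries or with the batch of the source name, which differs for WT female replicate 1.

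Below the count minimum, Cox8c and Cox7b2, forms of complex IV subunits known from testis, had reads. Cox8c reached 102 counts in WT male replicate 1 and had reads in 5 of 12 male libraries and 0 of 12 female libraries. Cox7b2 reached 28 counts in the same library and had reads in 6 male libraries and 1 female library.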

How the results depend on the processing

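The batch count stayed at 75 to 77 members in 10 other settings and at 75 to 76 without single libraries, and the Pparg comparisons with WT, Tbet males with WT and both differences of effects kept 0 calls in all 16 other settings. The count between WT sexes (9) ran from 5 to 22 without single libraries, and that between Pparg knockout sexes (3) from 0 to 3. WT sexes gave 16 calls with upper quartile scaling, 1 with no batch term, 24 with the batch of the source name, 24 with voom quality weights, 17 with voom and a correlation within title numbers, 24 on log2 FPKM, and 1 with only the groups compared. For the same settings Pparg knockout sexes gave 0 with no batch term, 0 with the source name, 14 and 9 with voom, 6 on log2 FPKM and 1 with only the groups compared; they gave 6 with DESeq2, 6 with a batch term in each sex, 0 in batch 2 alone and 2, both higher in males, in batch 1 alone. Tbet knockout sexes gave 4 and 2 with voom, 1 on log2 FPKM and 3 with only the groups compared. Tbet knockout females against WT females gave 2 and 1 with voom and 2 in batch 1 alone, with a median of 0.11 there. Batch 1 libraries gave a median of 0.12 between WT sexes and of -0.0146 for the Tbet effect in males minus females; batch 2 libraries gave -0.45 between WT sexes. Without the libraries over 150 CPM of ductal epithelium markers, a choice made after seeing the data, WT sexes gave 14 calls, Pparg knockout sexes 0 with a median of 0.0545, Tbet knockout sexes 1, Pparg knockout females against WT females a median of -0.23 and the Pparg effect in males minus females 0.20. The cause was not tested. With a replicate block instead of the batch term, WT sexes gave 8 calls (Cox7b was lost, adjusted p = 0.0604), Pparg knockout sexes 3 and no other call changed. After removing group and batch, libraries with the same replicate number in different groups had a mean correlation of -0.073. Other numbers of the same batch had -0.093, and 10 of 24 libraries correlated best with their own number. These correlations compare different groups only, so they cannot show whether libraries of the same group share an animal. The fitted correlation within title numbers was -0.246, which does not identify animals either. The main fit used no pairing. Depth limits the members of few reads, such as Cox6a2.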

Other observations

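Markers of other cells differed between the sexes beside the members. In WT males against WT females, where 13.6% of all genes were higher and 13.6% lower, 9 of 10 macrophage markers and 3 of 6 lipid-associated macrophage markers rose, as did 4 of 5 endothelial and 3 of 12 mature adipocyte markers. Of 6 stromal progenitor markers 3 fell, of 10 thermogenic markers 1 rose and 2 fell, 1 of 8 T cell and 1 of 5 mesothelium markers fell, and of 6 skeletal muscle markers 1 rose and 1 fell. None of 4 B cell, 11 ductal epithelium, 6 motile cilia or 3 blood markers passed edgeR's test there.

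In batch 2 against batch 1, where 26% of all genes were higher and 25.7% lower, macrophage markers had 5 of 10 higher and 1 lower, lipid-associated macrophage markers 1 higher and 1 lower, stromal progenitor markers 3 of 6 higher, endothelial markers 2 higher and 1 lower, and T cell markers 1 higher. Of 3 blood markers 2 fell, and 1 mesothelium and 1 skeletal muscle marker fell, while no B cell, ductal epithelium or motile cilia marker passed. Between Tbet knockout males and Tbet knockout females, the mitochondrial ribosomal RNA mt-Rnr2 was higher in males (log2 fold change 0.81, adjusted p = 0.0256).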
